A study of Mus musculus with 3 samples.

Results

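Among CD45- cells sorted from brains with mouse glioblastoma, 359 of 6676 kept cells carried astrocyte transcripts and no transgene transcript. A unique molecular identifier (UMI) marks 1 captured mRNA molecule, and the selection was made on raw UMIs. A selected cell had at least 5 UMIs summed over Aqp4, Gja1, Aldoc and Slc1a2, and 0 UMIs of the human EGFR transgene (hsEGFR) and of the Cre recombinase (iCre). It had at most 3 UMIs summed over the ciliated ependymal genes Tmem212, Ccdc153, Rsph1, Dynlrb2 and Foxj1, and at most 3 over the oligodendrocyte genes Mag, Mog, Cldn11 and Mal. Kept cells had at least 500 UMIs, at least 500 genes and at most 20% mitochondrial UMIs, and they came from 9091 deposited CD45- cells of a series of 20811. The cells were selected on the levels of these 13 genes and both transgenes, so these levels are given below as a description only.

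All mice carried a conditional (Cre/lox) human EGFR transgene, loss of Cdkn2a (Cdkn2a-/-) and a conditional luciferase reporter, on a mixed background. Tumors were started in adult mice of both sexes by stereotactic injection into the striatum of a lentivirus encoding TGFa and iCre, so only infected cells recombine the EGFR transgene, whereas the Cdkn2a loss is shared by every cell of these animals. The early, medium and late stages (late is "large" in the deposited annotation) are each 1 tumor sample (the methods state that cells of several mice were pooled where few were available, as for early tumors), and each was divided over 4 technical CD45- libraries in 3 sequencing runs. A difference between stages therefore cannot be told apart from a difference between the tumor samples, and no test between stages was possible. Normal brain was not analysed here. Intervals below are exact 95% intervals that cover counting error only.

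Astrocytes take up glutamate and potassium around synapses, couple to each other through connexin channels and line blood vessels with endfeet that hold the water channel aquaporin-4. After injury or beside a tumor they can become reactive, a state best known for the intermediate filament protein GFAP and also for vimentin, the secreted protein lipocalin-2 and complement. Sets of reactive genes are often grouped as pan-reactive, as A1-type (described after inflammatory stimuli) and as A2-type (described after ischemia).

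Most of the selected cells carried markers of another cell type as well. Of the 359 cells, 224 had more than 3 UMIs of at least 1 of 7 marker lists of other types, and 135 had not. These 135, called clean cells below, numbered 68 (early), 45 (medium) and 22 (late). The 15 astrocyte markers that the selection did not use (among them Slc1a3, Glul, Sox9, Clu, Mlc1 and Fgfr3) made up 2.65% of all UMIs in clean cells, with a median of 10 of the 15 detected per cell. In the other 224 cells they made up 0.324%, with a median of 4 detected. The same share was 0.417% in 2730 oligodendrocytes and 0.201% in 320 endothelial cells, which were taken from the same libraries. Both had 0 transgene UMIs, at most 3 UMIs of the 4 selection genes and at most 3 of the ependymal genes. Oligodendrocytes had at least 5 UMIs of Mag, Mog, Cldn11 and Mal and at most 3 of the endothelial markers, and endothelial cells the converse. Markers of further types were not limited in these comparison cells. These markers bear out the name astrocyte for the clean cells. In the remaining 224 cells their share ranged from 0.0791% in cells with neuron markers to 0.470% with oligodendrocyte progenitor and 0.774% with mural markers, and 77.2% of the 224 cells held at least 5 of their UMIs, against 73.5% of the oligodendrocytes. Gene levels below are those of the clean cells where not stated otherwise, and the counts of each main gene list are also given for all selected cells.

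The cells with other markers formed groups with different leading genes. Oligodendrocyte progenitor markers were present in 100 cells (42 early, 43 medium, 15 late), which entered mostly through Slc1a2 and Aldoc. In them Slc1a2 stood at 1555 CPM (counts per 1000000 of the summed UMIs of a group of cells), Aldoc at 970 and Aqp4 at 99.0. Fibroblast markers were present in 46 cells (27, 9 and 10), of which 41 entered with Gja1, the connexin 43 gene, as their leading gene. Gja1 stood at 2376 CPM in these cells and Aqp4 had 0 UMIs. Neuron markers were present in 42 cells (16, 8 and 18), which made up 9.25% of the selected cells (early), 7.08% (medium) and 24.7% (late). Endothelial markers were present in 32 cells, microglial markers in 14, choroid plexus markers in 12 and mural markers in 11, and 30 cells carried more than 1 list. A doublet caller (Scrublet) marked 3 of the 359 selected cells and 0 of the clean ones, from 80 calls in all 6676 cells. Median depth was 3465 UMIs in the 224 cells and 1641 in the clean ones, and the part of depth in the other markers was not tested.

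**Figure D1:**
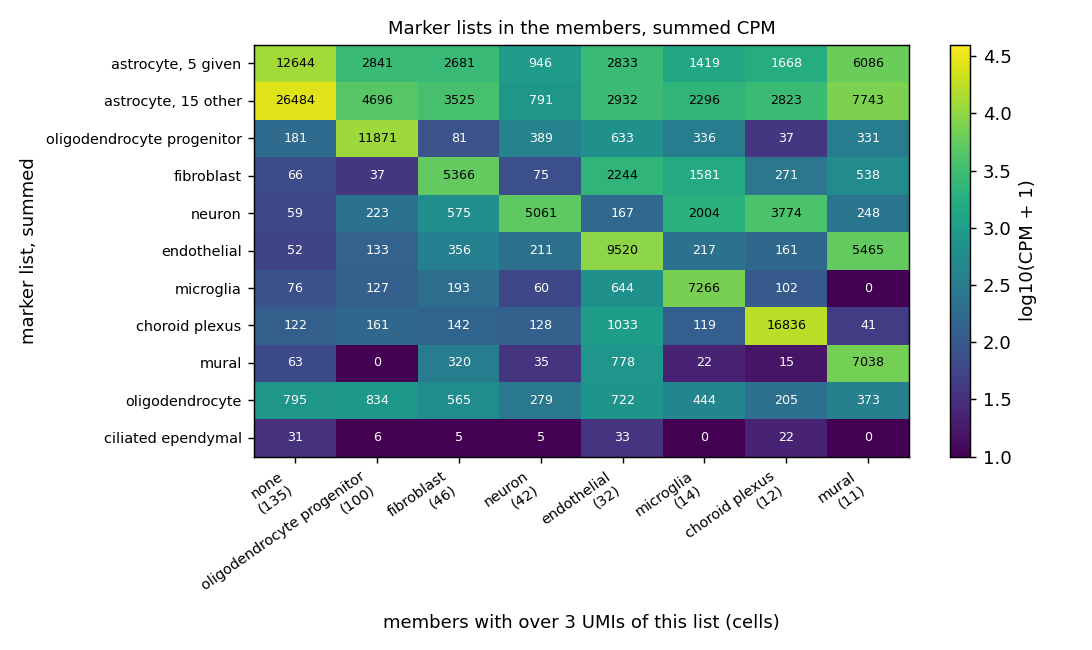
Summed level of marker lists (vertical axis; CPM printed in each field, colour as log10 of CPM + 1) in the selected cells (members), split along the horizontal axis by the other type whose markers they carried, with the number of cells in brackets (a cell can stand in several groups). The leftmost group holds the 135 clean cells, where the 15 astrocyte markers the selection did not use make up 2.65% of UMIs, against 0.470% in the 100 cells with oligodendrocyte progenitor markers.

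Just outside the threshold of 5 UMIs lay 68 cells with 4 UMIs of the 4 genes, 9 of them without other markers. Just inside lay 60 cells with 5 UMIs, 6 of them clean. Of the 102 cells with 5 or 6 UMIs 10.8% were clean, and of the 91 cells with 20 or more 80.2% were. Clean cells held all 4 genes in 48.9% of cells and 3 of the 4 in 35.6%. The other selected cells held all 4 in 4.02% and 1 of the 4 in 42.4%. Before the limits on transgenes, 841 kept cells reached 5 UMIs. The requirement of 0 hsEGFR UMIs removed 335 of them, the iCre requirement 3, the ependymal limit 53 and the oligodendrocyte limit 91.

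Selected cells took a smaller share of the late sample than of the others. The early sample held 173 of 2760 kept CD45- cells (6.27%, 5.39 to 7.24), the medium sample 113 of 1617 (6.99%, 5.79 to 8.34) and the late sample 73 of 2299 (3.18%, 2.50 to 3.98). By library the share was 3.62%, 7.54%, 6.55% and 7.07% in the early sample, 6.53%, 7.69%, 6.65% and 6.83% in the medium one, and 2.22%, 3.16%, 3.64% and 3.62% in the late one. The early library with 3.62% lay below the highest late library (3.64%), and the other 3 early and all 4 medium libraries lay above every late one. Within runs the early and late shares were 3.62% and 2.78% in run 1, 7.54% and 3.64% in run 2, and 6.75% and 3.62% in run 3. Clean cells were 2.46%, 2.78% and 0.957% of kept cells. Cells with a transgene UMI were 7, 355 and 1015 of the kept cells in the same samples. The selection barred these cells, but they count among the kept cells by which each share was divided. Their part in the falling share was not tested, and shares among cells without a transgene UMI were not computed.

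**Figure D2:**
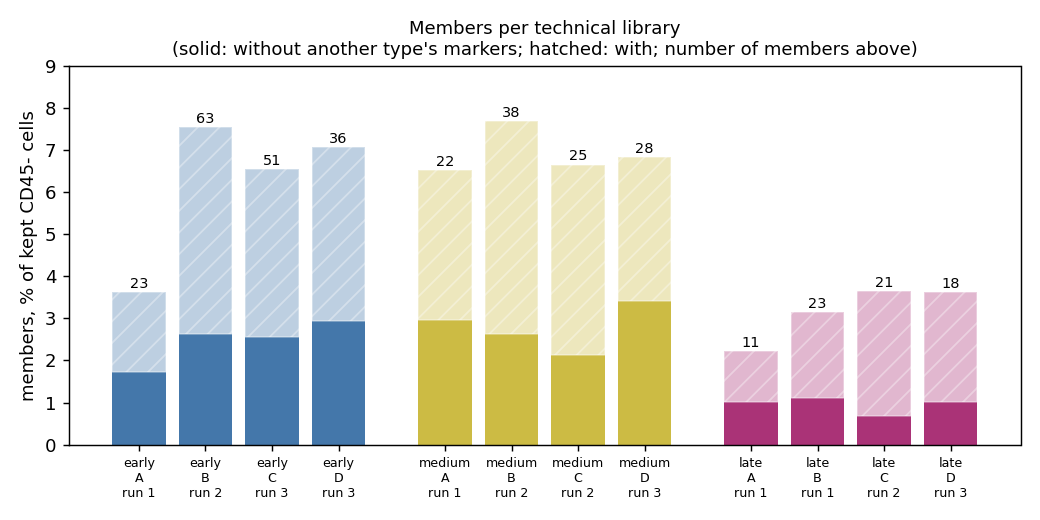
Share of selected cells among kept CD45- cells (percent, from 0) in each of the 4 technical libraries (A to D) of the early, medium and late sample, with the sequencing run below and the number of selected cells (members) above each bar. Solid parts are clean cells and hatched parts are cells with markers of another type. The late libraries lie between 2.22% and 3.64%, the medium ones between 6.53% and 7.69%, and 1 early library lies at 3.62%.

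The cell filter removed far more astrocyte-marked cells from the medium sample than from the others. In the medium sample 226 cells met the gene limits but failed the cell filter, and 210 of them carried no other type's markers. Of the 226, 185 had both over 20% mitochondrial UMIs and under 500 genes, 31 only the former and 10 only the latter. The early sample had 56 cells that failed (24, 22 and 10 in the same order) and the late sample 10 (0, 7 and 3). Without the cell filter the share was 5.81% of 3944 deposited cells in the early sample, 13.3% of 2544 medium cells and 3.19% of 2603 late cells. The 226 medium cells differed from the kept medium clean cells in astrocyte genes. Relative to UMIs other than mitochondrial ones, they held Gja1 at 839 CPM (3777 in clean cells), Slc1a3 at 1834 (6340) and Aqp4 at 533.5 (1389). Aldoc stood at 3688 CPM (4706) and Slc1a2 at 7314 (6222). In the kept clean cells the median share of mitochondrial UMIs was 11.2%, 10.2% and 5.80% in the early, medium and late sample.

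Depth differed between the groups. Selected cells had a median of 2225, 3175 and 2934 UMIs from early to late, and clean cells 1500, 2064 and 1370. The clean cells held 135541, 113169 and 39169 UMIs in all. A gene with 0 UMIs could therefore lie as high as 22.1, 26.5 and 76.6 CPM (3 counts) in the clean cells of the 3 stages, which is the limit to read beside every absent gene of the late sample. Of the 355 cell barcodes of the selected cells 4 occurred in more than 1 library, as did 595 of 6008 barcodes of all kept CD45- cells.

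Cells that met the gene limits but carried a transgene UMI numbered 0, 37 and 246 from early to late (0%, 2.29% and 10.7% of kept cells), and 0 of 2760 early cells allows a share of up to 0.134%. Their median depth was 8732 UMIs (medium) and 9176 UMIs (late), well above that of the selected cells. When thinned to 1000 UMIs, 64.9% of the medium and 74.7% of the late ones still showed a transgene UMI, and when thinned to 3000 UMIs 91.7% and 95.3% did. A selected cell of low depth could therefore carry a transgene that was not detected. Aqp4 stood at 97.0 and 9.25 CPM in these transgene cells, against 1255 and 689 CPM in clean cells of the same stages. Slc1a3 stood at 266 and 146 CPM against 5726 and 4927. Beyond the gene limits shared with all selected cells, markers of other types were not limited in these transgene cells, unlike in clean cells. The 15 astrocyte markers that the selection did not use summed to 1871 (medium) and 1269 CPM (late) in these transgene cells. They summed to 10762.5 and 4732 CPM in all selected cells and to 30052 and 30075 CPM in clean cells.

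In the clean cells the genes of glutamate and potassium handling were detected at every stage and differed by less than 2-fold. Slc1a3, the glutamate transporter GLAST, is a marker the selection did not use. It stood at 4293, 3143, 6692 and 2973 CPM in the early libraries, at 4098, 3661, 4277 and 9788 in the medium ones and at 7150, 4754, 4975 and 3512 in the late ones. The 3 groups of libraries overlapped. Over summed UMIs the log2 ratio of late to early was 0.26 (0.02 to 0.50) and that of medium to early 0.48 (0.31 to 0.64). Glul, which makes glutamine from glutamate, stood at 2324 (early), 2863 (medium) and 2630 CPM (late). Kcnj10, the potassium channel Kir4.1, stood at 317, 424 and 562 CPM (log2 ratio of late to early 0.84, 0.01 to 1.60). Of the 11 genes of this list other than Slc1a2, which the selection used, 0 differed by 2-fold or more in either comparison. Over all 3730 genes with at least 10 UMIs in the early and late clean cells, 17.0% were at least 2-fold higher and 20.9% at least 2-fold lower in the late sample. For the medium sample it was 15.1% and 17.1% of 5037 genes. A gene at 0 UMIs in a stage enters such counts by its fitted ratio, and with those genes at their bound (3 counts) 550 in place of 779 genes were at least 2-fold lower in the late sample. The median log2 ratio of these 11 genes was 0.23 for late and 0.33 for medium over early, beside 0.01 and 0.00 over all genes. Many calls in the gene lists were lost when 1 cell was left out in 1 of the stages. When the cell with most UMIs of a called gene was left out in the stage where that gene was higher, 24 of 46 called list genes remained past 2-fold for late and 30 of 52 for medium over early in clean cells, and 38 of 74 and 22 of 47 did in all selected cells. Leaving out a cell in that stage alone works against the call. With the highest cell of both stages left out, many lost calls for late over early returned (Fos, -1.91 in clean cells, and Vim, 1.17 in all selected cells). Others did not (Tgfb2, -0.77 in clean cells). The counts above are therefore no measure of how many calls rest on single cells.

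Across all 359 selected cells the same list had a negative median in the late sample. Slc1a3 stood at 2384, 1214, 1784 and 919 CPM in the early libraries, at 1383, 1385, 1101 and 4551 in the medium ones and at 1386, 586, 865 and 443 in the late ones, so the late values reached below the early ones but overlapped them. Of the 11 genes other than Slc1a2 4 were at least 2-fold lower in the late sample and 0 higher, with a median log2 ratio of -0.66. Among them were Slc1a3 (log2 ratio -1.01), Glul (-1.28) and Slc4a4, a bicarbonate transporter (-1.05). Without the early cell with most of the UMIs of each, Glul stayed past 2-fold (-1.23) and Slc1a3 (-0.91) and Slc4a4 (-0.97) did not. Without the highest cell of both stages the 3 stood at -1.37, -1.06 and -1.08. The background over 11986 genes was 10.6% lower and 18.2% higher, with a median of 0.17. The share of clean cells among the selected cells was 39.3% (early), 39.8% (medium) and 30.1% (late), and the share with neuron markers was highest in the late sample, as given above. For medium over early the list had 1 gene higher (Kcnj16, log2 ratio 1.07, and 0.87 without the medium cell with most of its UMIs) and 0 lower, beside 12.1% and 10.3% of 12097 genes. Without the highest cell of both stages Kcnj16 stood at 1.11.

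The genes that chose the cells are given for description. In clean cells Slc1a2, the main glutamate transporter GLT-1, stood at 3932 (early), 5620 (medium) and 5591 CPM (late), Gja1 at 2870, 3411 and 4059, Aldoc, a glycolytic enzyme of astrocytes, at 3018, 4250 and 3191, and Aqp4 at 974, 1255 and 689. Their log2 ratios of late to early were 0.51, 0.50, 0.08 and -0.48 in clean cells and -0.56, -0.65, -1.08 and -1.38 in all selected cells. Thinned to 1000 UMIs, 28 of 58 early, 23 of 45 medium and 9 of 18 late clean cells held an Aqp4 UMI. From early to late, 10, 0 and 4 shallower cells were left out. Among other genes of gap junctions and endfeet Gjb6, connexin 30, stood at 871, 998 and 1149 CPM in the clean cells and Mlc1, an endfoot membrane protein, at 716, 1007 and 740. Of the 7 genes of this list that were tested and that the selection did not use, 0 were at least 2-fold higher in the late sample, beside 17.0% of all genes. The fitted ratio of Gjb2 (12, 2 and 0 UMIs) lay past 2-fold, but with 3 counts in place of the late 0 it was 1.16-fold lower. Such a bound leaves out the counting error of the early UMIs, so it is not a minimum. In all selected cells 3 of 8 such genes were at least 2-fold lower, with a median log2 ratio of -0.81, beside 10.6% of all genes. They were Gjb6 (-1.21), Gjb2 (-1.48) and Mlc1 (-1.38), and all 3 stayed past 2-fold without the early cell with most of their UMIs.

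**Figure D3:**
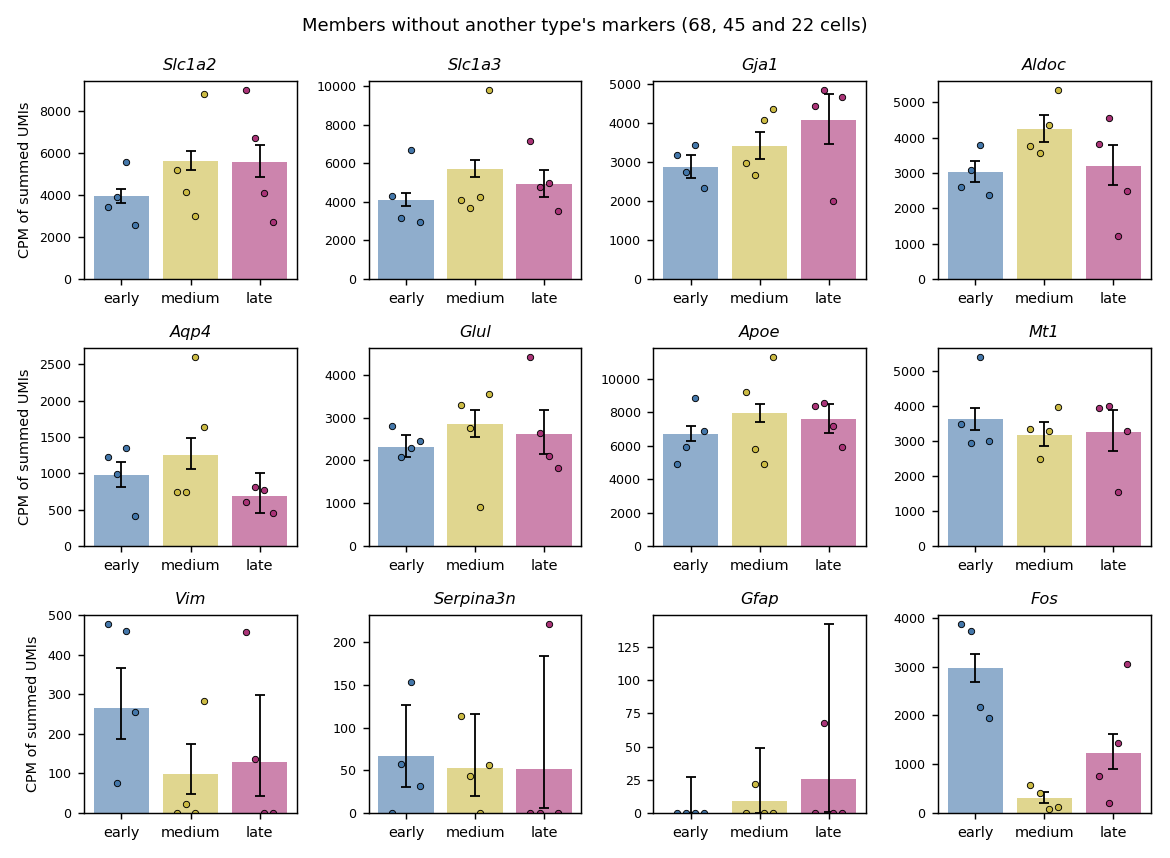
Level (CPM of summed UMIs, from 0) of 12 genes in the 68 early, 45 medium and 22 late clean cells, with exact 95% counting intervals as error bars and the 4 technical libraries as points. Slc1a3 stands at 4117, 5726 and 4927 CPM and Gfap at 0, 8.84 and 25.5 CPM, and Fos stands at 2966, 300.4 and 1225 CPM.

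Gfap, the defining filament gene of reactive astrocytes, was close to absent. From early to late, clean cells held 0, 1 and 1 of its UMIs (0, 8.84 and 25.5 CPM), and all selected cells held 0, 3 and 2. Each of these counts lies at or under 3, so no ratio is given. Oligodendrocytes held Gfap at 2.41, 7.51 and 7.05 CPM and ciliated ependymal cells at 30.3, 13.3 and 46.1 CPM. The gene lies at chr11:102887336-102900912 on the minus strand of GRCm38. Transgene cells that met the gene limits held it at 58.7 CPM (medium) and 132 CPM (late).

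The remaining pan-reactive genes were few and carried by few cells. Lcn2 (lipocalin-2), Steap4 and Aspg had 0 UMIs in the clean cells of every stage. Serpina3n, a secreted protease inhibitor, had 9, 6 and 2 UMIs in 6, 5 and 2 clean cells, at 66.4, 53.0 and 51.1 CPM. Cd44, the hyaluronan receptor, had 9, 1 and 1 UMIs. Cxcl10, an interferon-induced chemokine, had 9 UMIs in the medium sample, all in 1 cell, and Cp (ceruloplasmin) had 7 UMIs in the late sample, all in 1 cell. Over the 13 genes the clean cells summed to 553 CPM (early, 435 to 694), 283 CPM (medium, 193 to 399) and 511 CPM (late, 312 to 789). A UMI of any of the 13 was seen in 19 of 68, 14 of 45 and 6 of 22 clean cells. Of the 4 genes with at least 10 UMIs in early and late clean cells 0 passed 2-fold, and of 5 genes in the medium comparison 1 was higher (Cxcl10) and 3 were lower (Vim, Hspb1 and Cd44), beside 15.1% and 17.1% of all genes. Vim no longer passed 2-fold without the early cell with most of its UMIs (log2 ratio -0.92), and Hspb1 and Cd44 did. Without the highest cell of both stages Vim stood at -1.95.

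In all selected cells 3 pan-reactive genes stood at least 2-fold higher in the late sample, and whether they stayed past 2-fold depended on which cells were left out. Vim, the vimentin gene, stood at 260, 58.2, 207 and 109 CPM in the early libraries, at 0, 49.7, 29.2 and 200 in the medium ones and at 2589, 47.1, 513 and 352 in the late ones. The late value rested on few cells, since 1 cell held 54.7% of the late Vim UMIs and the late level without it was 237 CPM. In clean cells Vim stood at 266, 97.2 and 128 CPM (36, 11 and 5 UMIs). Timp1, a protease inhibitor, stood at 14.9, 9.20 and 108 CPM in all selected cells, with 75.7% of its late UMIs in 1 cell, and had 0, 3 and 1 UMIs in clean cells. Of the 8 genes tested 3 were at least 2-fold higher in the late sample (Vim, Timp1 and Osmr) and 0 lower, beside 18.2% and 10.6% of all genes. Without the late cell with most of its UMIs the log2 ratio was 0.92 for Vim (2.00 with it), 0.84 for Timp1 (2.79) and 0.66 for Osmr (1.18), so 0 of the 3 stayed past 2-fold. Without the highest cell of both stages it was 1.17, 1.45 and 1.51, past 2-fold in all 3. Summed neuron markers stood at 1388 CPM in early and 2939 CPM in late selected cells and endothelial markers at 721 and 901, whereas markers of oligodendrocyte progenitors (2787 and 1563), fibroblasts (1002 and 738), microglia (792 and 373) and the choroid plexus (4403 and 90.4) were lower in the late cells. Their part in the pan-reactive levels was not tested. Late selected cells with endothelial markers summed to 5499 CPM over the 13 genes, those with fibroblast markers to 3950 and those with neuron markers to 50.5. Endothelial cells of the late sample stood at 2912 CPM and oligodendrocytes at 318, and the late clean cells at 511, as given above. The list of filament and cytoskeleton genes had 5 of 9 genes at least 2-fold higher in the late selected cells (median log2 ratio 1.03, beside 18.2% of all genes and a median of 0.17). Of the 5, 0 stayed past 2-fold without the late cell with most UMIs of the gene. Without the highest cell of both stages Vim (1.17) and Lmna (1.06) did, and Nes, Tubb6 and Tmsb10 did not. In clean cells 0 of 4 genes were higher (median -0.59), beside 17.0% of all genes.

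A1-type genes moved in both directions in the clean cells, and the A2-type list could not be described as a group. Of the 12 A1-type genes 5 reached 10 UMIs in the late comparison, where 17.0% of all genes were higher and 20.9% lower. Of the 5, 2 were at least 2-fold higher (Iigp1, with 6 late UMIs, all in 1 cell, and H2-T23, with 5 late UMIs, 60% of them in 1 cell). By its fitted ratio 1 was lower (Gbp2, 12 early and 0 late UMIs). With 3 counts in place of the late 0 Gbp2 was 1.16-fold lower. Without the late cell with most of its UMIs H2-T23 stood at 0.77 on the log2 scale, under 2-fold, and Iigp1 had no late UMI left. Without the highest cell of both stages H2-T23 stood at 1.41 and Iigp1 at -0.53. H2-D1, a class I antigen gene, stood at 170, 362 and 204 CPM, with 75.0% of the late UMIs in 1 cell. Serping1, a complement inhibitor, had 23, 3 and 4 UMIs. In the medium sample H2-D1 was higher (log2 ratio 1.08) and Serping1 and Gbp2 lower, of 5 tested, beside 15.1% higher and 17.1% lower of all genes. H2-D1 stood at 0.79 without the medium cell with most of its UMIs, and at 1.37 without the highest cell of both stages. Of the 12 A2-type genes S100a10 alone reached 10 UMIs over the compared stages, with 14, 1 and 0 UMIs. With 3 counts in place of the late 0 it was 1.35-fold lower, which leaves out the counting error of the early UMIs. The complement gene C3, often used as an A1 marker, had 0 UMIs in clean cells of every stage. In all selected cells the medians for late over early were -0.29 (A1-type, 10 genes) and -0.27 (A2-type, 5 genes), beside 0.17 over all genes. There 1 of 10 A1-type genes was higher and 2 lower, and 0 and 1 of 5 A2-type genes, beside 18.2% higher and 10.6% lower of all genes.

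**Figure D4:**
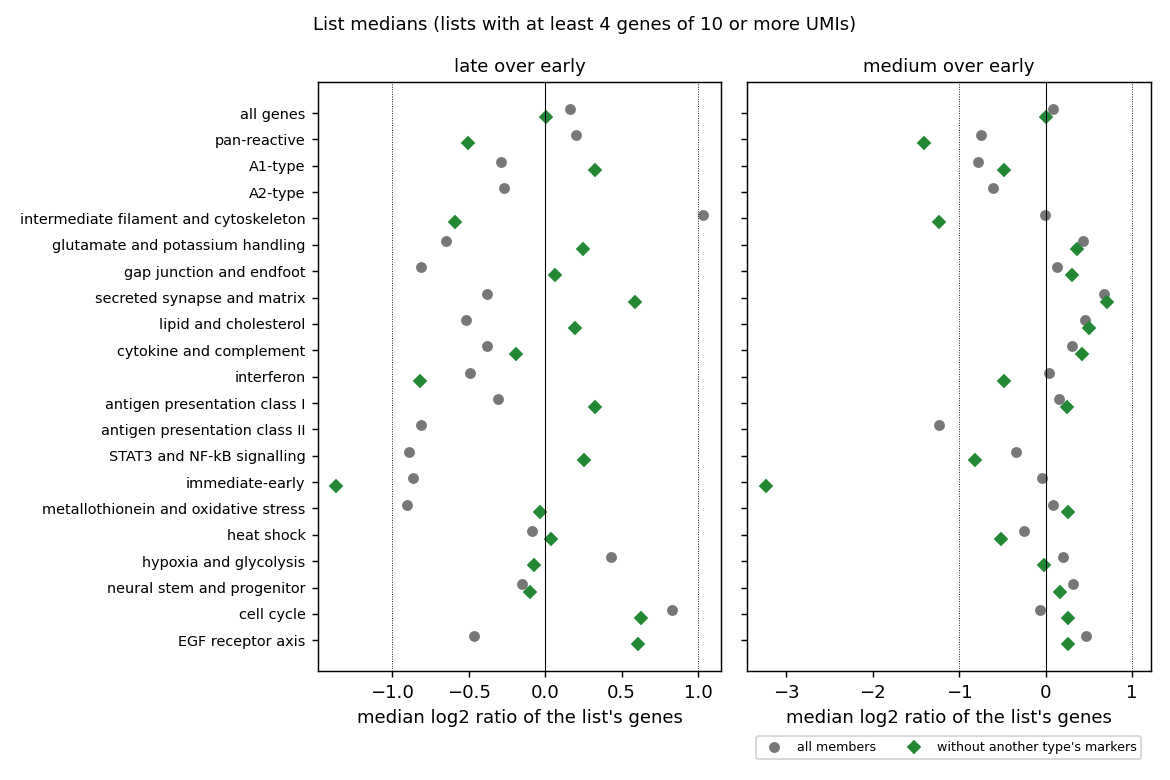
Median log2 ratio of each gene list for late over early (left) and medium over early (right), in all selected cells (members, grey circles) and in clean cells (green diamonds), for lists with at least 4 genes of 10 or more UMIs. Dotted lines mark 2-fold. The immediate-early list stands at -1.37 and -3.24 in clean cells, and the filament list stands at 1.03 in all selected cells but at -0.59 in clean cells for late over early. The glutamate list includes Slc1a2 and the gap junction list Gja1 and Aqp4, which the selection used.

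Among the lists the immediate-early genes had the lowest medians in the clean cells, in both comparisons of lists with at least 4 genes tested. These genes encode transcription factors and feedback regulators that are switched on within minutes of a stimulus, including tissue dissociation. Fos stood at 3869, 3730, 2179 and 1950 CPM in the early libraries, at 569, 414, 70.1 and 113 in the medium ones and at 761, 204, 1437 and 3059 in the late ones. Every early library lay above every medium one, and the late libraries spanned both. In cells that met the gene limits but failed the cell filter, Fos had 28, 59 and 5 UMIs from early to late. Relative to UMIs other than mitochondrial ones, it stood at 404, 306 and 358 CPM there, against 3324, 333 and 1309 in clean cells. The part of the cell filter in these levels was not tested. Red blood cell transcripts in the same clean cells stood at 435, 8.84 and 0 CPM from early to late and were found in 39.7% of the early cells. Choroid plexus markers, limited to 3 UMIs per clean cell by definition, stood at 199, 61.9 and 25.5 CPM. Oligodendrocyte markers, of which the selection limited Mag, Mog, Cldn11 and Mal, stood at 1144, 398 and 740 CPM. The part of these transcripts in the lower levels was not tested. Fos UMIs were found in 23 of 68 early, 8 of 45 medium and 5 of 22 late clean cells, and 1 cell held 24.1%, 29.4% and 54.2% of them. Over summed UMIs the log2 ratio was -3.28 (-3.85 to -2.80) for medium and -1.26 (-1.74 to -0.84) for late over early. Dusp1, a phosphatase that ends MAP kinase signals, had 96, 2 and 9 UMIs (708, 17.7 and 230 CPM), and Junb, a partner of Fos, had 131, 14 and 4 (966, 124 and 102 CPM). Of 15 genes tested 14 were at least 2-fold lower in the medium sample and 0 higher, with a median of -3.24, beside 17.1% lower and 15.1% higher of all genes. Of 16 genes 10 were lower and 1 higher in the late sample, with a median of -1.37, beside 20.9% and 17.0%. With the genes at 0 late UMIs at their bound 9 were lower and the median was -1.19. The 1 higher gene was Klf2, whose 17 late UMIs came from 1 cell. Without the early cell with most UMIs of the gene, 12 of the 14 lower genes stayed past 2-fold in the medium and 7 of the 10 in the late comparison, where Fos itself stood at -0.91. The genes that lost the late call, Fos, Klf4 and Klf6, stood at -1.91, -4.49 and -1.32 without the highest cell of both stages.

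In the 224 selected cells with other markers the order was different. Fos stood at 3744, 5983 and 1280 CPM there, so the medium value was the highest. In all 359 selected cells it stood at 3548, 4504 and 1274 CPM, and of 19 genes 0 were higher and 2 lower in the medium sample (median -0.04), beside 12.1% and 10.3% of all genes. For late over early 7 of 20 genes were lower and 0 higher (median -0.86), beside 10.6% and 18.2% of all genes. That median was -0.11 when the cells were thinned to 1000 UMIs and -0.35 as a mean over cells. Counting cells instead of UMIs, at least 5 of every 1000 UMIs came from the 20 genes in 15 of 68 (22.1%), 2 of 45 (4.44%) and 3 of 22 (13.6%) clean cells. The exact intervals of the early and medium shares (12.9% to 33.8% and 0.543% to 15.2%) overlapped. The shares were 54 of 105, 43 of 68 and 19 of 51 in the selected cells with other markers. They were 14.3%, 7.60% and 9.13% in oligodendrocytes, where the early sample was also the highest, and 76.6%, 78.9% and 72.5% in endothelial cells. 

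**Figure D5:**
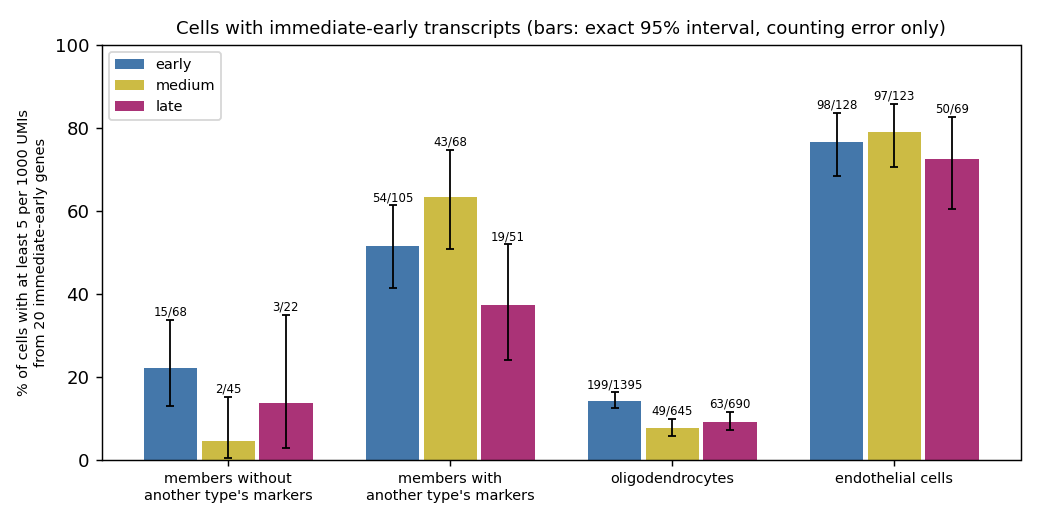
Percent of cells with at least 5 per 1000 UMIs from 20 immediate-early genes, in clean cells, selected cells with another type's markers, oligodendrocytes and endothelial cells of the early, medium and late sample, with exact 95% intervals (counting error only) and the number of cells above each bar. Clean cells stand at 22.1%, 4.44% and 13.6% and endothelial cells between 72.5% and 78.9%.

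The promoters of Fos, Junb and Dusp1 are shown because these genes were low together in the medium clean cells. Each window runs from 250 bases before to 50 after the gene's start in RefSeq on GRCm38.p6, is written 5′ to 3′ on the gene's strand, and has in capitals the core TGACG of the cyclic AMP response element or its reverse complement CGTCA, where overlapping matches were both counted. Fos has 2 matches, Junb 1 and Dusp1 3.
Fos promoter, chr12:85473640-85473939, plus strand: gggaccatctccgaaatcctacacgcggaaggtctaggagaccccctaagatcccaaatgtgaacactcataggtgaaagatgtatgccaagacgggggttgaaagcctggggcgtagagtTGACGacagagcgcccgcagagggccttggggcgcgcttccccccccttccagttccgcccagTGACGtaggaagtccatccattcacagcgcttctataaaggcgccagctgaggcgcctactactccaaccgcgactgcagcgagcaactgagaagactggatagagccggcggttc
Junb promoter, chr8:84978699-84978998, minus strand: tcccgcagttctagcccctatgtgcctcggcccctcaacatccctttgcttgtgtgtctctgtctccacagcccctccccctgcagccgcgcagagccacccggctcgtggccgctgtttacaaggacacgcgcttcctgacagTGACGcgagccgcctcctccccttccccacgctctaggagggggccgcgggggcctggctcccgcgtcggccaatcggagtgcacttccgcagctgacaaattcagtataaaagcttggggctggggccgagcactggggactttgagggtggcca
Dusp1 promoter, chr17:26508423-26508722, minus strand: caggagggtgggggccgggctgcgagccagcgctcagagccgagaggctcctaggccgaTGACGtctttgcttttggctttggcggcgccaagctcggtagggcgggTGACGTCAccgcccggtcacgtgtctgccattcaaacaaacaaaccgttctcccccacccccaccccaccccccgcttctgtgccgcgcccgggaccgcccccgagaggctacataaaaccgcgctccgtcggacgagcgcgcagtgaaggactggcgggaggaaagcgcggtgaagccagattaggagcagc
Of the 18 immediate-early genes with a RefSeq promoter, 10 (55.6%) held a match, as did 23.05% of all 27025 genes. A match is a description of the letters and not of binding.

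The secreted genes that shape synapses and matrix were described in the clean cells by 8 tested members. Mfge8, an opsonin, stood at 849, 1502 and 1736 CPM (log2 ratio of late to early 1.04, 0.58 to 1.48), and Ncan, the proteoglycan neurocan, at 207, 398 and 562 (1.45, 0.57 to 2.30). Clu (clusterin) stood at 1726, 2545 and 3089 CPM, with 35.5% of its late UMIs in 1 cell. Of the 8 genes 2 were at least 2-fold higher in the late sample (Mfge8 and Ncan) and 0 lower, with a median of 0.59. The 2 of 8 lie near the 17.0% of all genes. Over the 359 selected cells 1 of 12 was higher and 2 lower, beside 18.2% and 10.6%, with a median of -0.38. Without the late cell with most of its UMIs Ncan stayed past 2-fold (1.17) and Mfge8 did not (0.93). Without the highest cell of both stages they stood at 1.375 and 1.22. Library values overlapped, with Mfge8 from 477 to 1098 CPM in the early and from 566 to 3803 in the late libraries. Thbs1, a thrombospondin, had 210, 6 and 24 UMIs in all selected cells but 2, 0 and 2 in clean cells.

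Among lipid genes Apoe, the main lipid carrier of astrocytes, stood at 6714, 7935 and 7608 CPM in clean cells and at 3354, 3181 and 1230 CPM in all selected cells (log2 ratio of late to early -1.45, and -1.33 without the early cell with most of its UMIs). Fabp7, a fatty acid binding protein of radial glia and young astrocytes, stood at 730, 530 and 128 CPM (99, 60 and 5 UMIs), and its log2 ratio of late to early was -2.39 (-4.17 to -1.25). Library values of Fabp7 ran from 160 to 1961 CPM in the early and from 0 to 453 in the late sample, so they overlapped. Hmgcs1, a cholesterol synthesis enzyme, had 24, 41 and 0 UMIs. With 3 counts in place of the late 0 it was 2.31-fold lower, which leaves out the counting error of the early UMIs. The list had 2 genes higher (Srebf2, log2 ratio 1.40, and Acsbg1, 1.01, or 0.82 without the late cell with most of its UMIs) and 2 lower (Fabp7 and Hmgcs1) of 16 tested, beside 17.0% and 20.9% of all genes. Among all 359 cells 0 of 18 were higher and 5 lower in the late sample, beside 18.2% and 10.6%, with a median of -0.52.

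Most cytokines of the list had few or 0 UMIs in the clean cells. Ccl2, Ccl7, Cxcl1, Cxcl2, Il6, Lif, Clcf1 and C1s1 had 0 UMIs there at every stage. Cxcl14, a chemokine of astrocytes, stood at 384, 504 and 511 CPM in 28, 28 and 11 cells. Il18, an interleukin of the IL-1 family, stood at 103, 141 and 281 CPM (14, 16 and 11 UMIs). Tgfb2 stood at 494, 70.7 and 102 CPM, but 79.1% of its early UMIs came from 1 cell. Class II genes, which microglia and macrophages express, came from few cells: Cd74 had 8 late UMIs and H2-Aa 12, in each case from 1 cell. Among class I genes B2m stood at 148, 256 and 409 CPM, with 87.5% of the late UMIs in 1 cell.

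Of the inflammatory signalling genes Cebpb, a factor of the acute-phase response, had 28, 0 and 0 UMIs. With 3 counts in place of each 0 it was 7.79-fold lower in medium and 2.70-fold lower in late cells. These folds leave out the counting error of the early UMIs. Cebpd, a close relative, had 30, 1 and 10 UMIs, and Socs3, a feedback inhibitor of STAT3, had 19, 5 and 7. Stat3 itself stood at 118, 133 and 204 CPM. Of the list of STAT3 and NF-kB genes 3 of 8 were at least 2-fold lower in the medium sample and 0 higher, with a median of -0.82, beside 17.1% and 15.1% of all genes. For the late sample 3 of 7 were lower (2 with genes at 0 UMIs at their bound) and 0 higher, although the median was 0.25, beside 20.9% and 17.0%. Among all 359 cells 5 of 11 were lower and 1 higher in the late sample, with a median of -0.89, beside 10.6% and 18.2%. Of 8 interferon genes 3 were lower in the medium sample and 0 higher, beside 17.1% and 15.1% of all genes. Of 6 in the late sample 3 were lower (1 with genes at 0 UMIs at their bound) and 1 (Iigp1, through 1 cell) higher, beside 20.9% and 17.0%. Of 17 interferon genes tested in all selected cells 4 were lower and 1 higher in the late sample, beside 10.6% and 18.2%.

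Among stress and metabolic genes Mt1 and Mt2, metallothioneins that bind zinc and copper, stood at 3630, 3190 and 3268 CPM (Mt1) and at 1918, 2147 and 2145 CPM (Mt2) in clean cells. In all selected cells Mt1 stood at 1517, 1224 and 644 CPM. Gstm1, a glutathione transferase, stood at 1232, 1573 and 715 CPM, and Gclm, a subunit of the enzyme that starts glutathione synthesis, had 29, 22 and 1 UMIs. Hsph1, a heat shock protein, stood at 480, 8.84 and 102 CPM, with 52.3% of the early UMIs in 1 cell. Gapdh stood at 1417, 1405 and 1532 CPM and Vegfa, the hypoxia-induced vascular growth factor, at 273, 309 and 230. Of the hypoxia and glycolysis list 0 of 14 genes were higher and 3 lower in the late clean cells (2 with Adm, at 13 early and 0 late UMIs, at its bound), near the 20.9% of all genes. Counted over all selected cells 3 of 17 were higher and 3 lower, beside 18.2% and 10.6%.

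Of progenitor and growth factor genes Sox9, a glial fate factor, stood at 782, 1193 and 1225 CPM, and Sox2 at 546, 521 and 638. The mouse Egfr gene, distinct from the human transgene, had 15, 18 and 13 UMIs in clean cells (111, 159 and 332 CPM), with a log2 ratio of late to early of 1.59 (0.39 to 2.76, and 0.999 without the late cell with most of its UMIs) and late libraries from 0 to 884 CPM. Without the highest cell of both stages the ratio of Egfr was 1.40. The ligand gene Hbegf had 14, 18 and 10 UMIs, and Tgfa 3, 2 and 1. Mki67, a proliferation marker, had 2, 11 and 5 UMIs, and the 11 medium ones came from 1 cell. The human TGFA insert of the lentivirus had 0 UMIs in the selected cells, but it had only 1 UMI in 355 medium and 2 in 1015 late transgene cells, so its absence does not bear on infection.

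Across all genes, the 10 ranked highest for late over early in the 359 selected cells included Cartpt, Resp18, Tac1, Slc32a1, Lrrc17, Vgf, Cck and Bc1. Cck, a neuropeptide, had 57 early and 263 late UMIs in all selected cells (log2 ratio 2.84, 2.43 to 3.29), of which 0.380% of the late ones lay in clean cells. Its ratio was 3.63 within run 1 but 0.77 within run 2, and those of Vgf (5.35 and 0.23) and Bc1 (6.17 and 1.04) also differed between these runs, while run 3, with 18 late selected cells, was left out of the ranking. Slc32a1, the vesicular transporter of GABA, had 2 early and 36 late UMIs, none in clean cells. Lrrc17 had 5 and 55 UMIs, with 2 and 5 of them in clean cells, and was also higher in late oligodendrocytes (log2 ratio 2.19). Ranked lowest were Ttr, Enpp2, Ptgds, Plod2, Tbx15, Thbs1, Ackr3, Snhg1, Folr1 and Sox21. Ttr, the transthyretin gene of the choroid plexus, stood at 4257 and 40.8 CPM in early and late selected cells, with 0.963% of the early UMIs in clean cells. That small share follows from the definition, because Ttr and Folr1 are in the choroid plexus list, limited to 3 UMIs per clean cell. In oligodendrocytes the same ratio was -5.71 on the log2 scale. Folr1, also a choroid plexus gene, had 21 early and 0 late UMIs.

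For medium over early the highest were Magef1, Celf3, Kifc2, Bc1 and Irx1 and the lowest Ttr, Thbs1, Igf2, Npy and Lyz2. Magef1 had 0 early and 26 medium UMIs, of which 38.5% lay in clean cells. Bc1, a noncoding RNA of neuronal dendrites, had 47 and 192 UMIs, and its log2 ratio was 1.84 in clean cells. Npy, the neuropeptide Y gene, had 43 early UMIs, of which 93.0% lay in clean cells, and 0 medium UMIs. Its log2 ratio was -6.74 within run 1, with 23 early selected cells, and -1.82 and -1.90 within runs 2 and 3. Lyz2, a lysozyme of myeloid cells, had 58 early and 1 medium UMIs, of which 1.72% of the early ones lay in clean cells.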

How the data were processed

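The deposited table held raw UMI counts per gene and cell barcode, made by the authors with the inDrop system, RapMap alignment to the mouse transcriptome (mm10) with transgenes added, and droplet calling. The deposited annotation gave each cell's library, stage and sort. The study's methods state that ambient RNA was removed (DropletUtils) and that doublets (scDblFinder) were left out of later analysis. Whether the deposited counts precede or follow these steps is not given in the sources used here, and no doublet was removed here. Of 20811 cell columns 9091 (12 CD45- libraries) were used and 11720 were not. UMIs were summed over cells of a stage. CPM is relative to all UMIs of those cells. Log2 ratios used a prior of 0.5 counts, with exact conditional binomial intervals. CPM and shares carry exact Poisson and Clopper-Pearson 95% intervals. A gene was called when past 2-fold with at least 10 UMIs over both stages. A count of 0 was bounded by 3 counts over the stage, and a fold given with this bound leaves out the counting error of the other stage. With 1 tumor sample per stage no p-value was computed. The selection, marker lists and gene lists were chosen with earlier results of these data known. Named genes were those of the lists, plus the 10 (late) or 5 (medium) genes ranked highest and lowest in all selected cells by the bound of the interval nearer 0, among genes with at least 20 UMIs and the same sign within every run with at least 20 selected cells in both stages. Mitochondrial, haemoglobin, ribosomal protein, sex-linked marker and unnamed genes and those of the selection were left out of the ranking. Alternatives covered the cell limits, thinning, edgeR (4.0.16) TMM scaling, Scrublet scores and libraries; those on clean cells that changed libraries, the top cell, the prior or the limits, and those that left out a called gene's top cell or the genes of the selection, were added after seeing the data. Python 3.11.15, scipy 1.17.1, scanpy 1.11.5 and R 4.3.3 were used. Gene positions are from GENCODE M21. Some named genes and an allele are not reported here.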

Additional observations from a re-analysis of the deposited data

Results flagged for a closer look

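In 10 of 75 groups of 4 technical libraries, 1 library lay apart from the others by more than Dixon's 95% limit. Independent, normally distributed values would pass this limit in about 1 in 20 groups. These groups overlap and some rest on few cells, so the 10 cannot be set against that rate. In all selected cells Aldoc stood at 1864 CPM in 1 early library (1083 to 1192 in the others). In 1 medium library Slc1a2 stood at 4340 CPM (1638 to 2067), Slc1a3 at 4551 (1101 to 1385) and Mt1 at 1964 (1023 to 1079). Mt1 stood at 837 CPM in 1 late library (601 to 633). In clean cells Gja1 stood at 1990 CPM in 1 late library (4412 to 4822) and B2m stood at 1586 in 1 late library (0 to 136). In the medium clean cells 1 library held Slc1a3 at 9788 CPM (3661 to 4277), 1 held Junb at 626 (0 to 70.1) and 1 held Vim at 282 (0 to 21.8).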

How the results depend on the processing

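No paired analysis was possible because the result comes from no test, with 1 tumor sample per stage. Each of the 3 sequencing runs held libraries of all stages, and values within runs are given instead. The share of selected cells moved with the limits: 3.297%, 4.205% and 1.305% (early, medium, late) with at least 10 UMIs of the 4 genes, 9.02%, 8.905% and 5.44% with at least 3, 2.46%, 2.78% and 0.957% without cells with other markers, 3.02%, 3.43% and 1.59% after thinning, 4.62% (early) and 5.50% (medium) with at most 10% mitochondrial UMIs, 13.3% (medium) without the cell filter, and 3.62% and 7.54% (early) within runs 1 and 2. Leaving out 1 library gave 5.72 to 7.06% (early), 6.68 to 7.11% (medium) and 3.02 to 3.44% (late). Genes at least 2-fold higher in the late sample numbered 853 after thinning, 5400 from 1 UMI, 634 in clean cells and 1377 within run 2 (1849 to 2232 without 1 library), and lower 557, 2634 and 779 in the first 3 (1120 to 1463). For the medium sample 756, 4132 and 760 were higher and 570 within run 1 (1365 to 1582), and 759 after thinning, 1885 from 5 UMIs, 4312 from 1 UMI and 405 within run 1 lower (1099 to 1481).

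List medians (log2) for late over early were, for pan-reactive genes, 1.33 as a mean over cells, 1.04 after thinning and 2.09 within run 2 (-0.53 to 0.55 without 1 library); for A1-type genes 0.61 after thinning and -1.47 within run 1 (-1.01 to 0.10); for A2-type genes -3.07 in clean cells (1 gene, S100a10, at 0 late UMIs, -0.43 at its bound) and -1.18 within run 1 (-0.89 to 0.32). The glutamate list gave -0.29 as a mean over cells, -0.32 after thinning, -0.87 with TMM, 0.25 in clean cells and -1.18 within run 1 (-0.84 to -0.53), and in clean cells 0.70 with at least 10 UMIs of the 4 genes and -0.0099 without the highest cell (0.14 to 0.49). The immediate-early list gave -0.35 as a mean over cells, -0.11 after thinning, -1.08 with TMM, -1.37 in clean cells, -1.39 with at least 10 UMIs, -0.67 without the top Scrublet scores and -1.06 within run 1 (-0.96 to -0.72), and in clean cells -3.53 with at least 10 UMIs (-2.32 to -0.82). For medium over early the pan-reactive list gave -0.13 as a mean over cells, -1.41 in clean cells, -1.30 with at least 10 UMIs and -2.28 within run 1 (-0.80 to -0.31); the A1-type list -0.34, 0.37 after thinning and -0.30 with at least 10 UMIs (-1.02 to -0.41); the A2-type list -3.01 in clean cells (S100a10 alone), -2.04 with at least 10 UMIs and -1.48 within run 3 (-1.40 to -0.36). The glutamate list gave 0.063 and 0.74 within runs 1 and 3 (0.31 to 0.58; clean cells 0.21 to 0.54). The immediate-early list gave -3.24 in clean cells, -0.57 with at least 10 UMIs and -0.37 within run 1 (-0.33 to 0.044), and in clean cells -2.60 with at most 1 UMI per other list (-3.53 to -2.73).

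Genes followed through all alternatives were those of the selection, the ranked ones and those with the largest ratios in the main lists. Among these genes and the lists, direction turned in clean cells for the filament list (-0.59), Aldoc (0.085), Vim (-0.94) and Glul (0.18), late over early, and for medium over early in Egr2 within runs 1 and 3 (0.019 and 0.20) and Srgn with at least 10 UMIs (1.38) and within run 3 (0.13). Genes that were not followed also turned in clean cells, among them Slc1a3, Apoe, Gjb6 and Mlc1, late over early, by the values given above. The cause was not tested. Without Slc1a2 the glutamate median was -0.66 (late) and 0.46 (medium) in all selected cells and 0.23 and 0.33 in clean cells. Without the cell with most UMIs in the stage where a called list gene was higher, an alternative chosen after seeing the data, the log2 ratio turned, among genes reported here, late over early in all selected cells for Nes (-3.00), Ccl7 (0.63) and Cxcl1 (-2.14) and in clean cells for Iigp1 (-1.56), Tgfb2 (0.047), B2m (-1.13), Cd74 (-2.74), H2-Aa (-2.004), Klf2 (-2.35), Klf6 (0.15), Sox11 (1.36) and Dlx2 (3.303). For medium over early it turned in all selected cells for Ccl7 (0.29), Tgfb2 (0.18) and Mki67 (-1.99) and in clean cells for Cxcl10 (-1.31), Klf6 (0.49), Mki67 (-1.93) and Cenpf (0.22). Where no UMI was left the value depends on the prior. Among the other values of the genes and lists that were followed, 1133 for genes and 512 for lists stayed within their interval or spread. Of these values 178 and 101 moved past it without a called direction turning. Genes at 3 or fewer counts in both stages have no value. The 22 late clean cells limit every late value.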

Other observations

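In the medium cells that met the gene limits but failed the cell filter, Gfap had 12 UMIs (36.1 CPM). The early (10.2 CPM) and late ones (55.1 CPM, from 18165 UMIs in all) had 1 UMI each. In these medium cells Slc1a2 stood at 4249 CPM, Slc1a3 at 1065, Gja1 at 487.5 and Aqp4 at 310 CPM. In the kept clean cells of the medium sample Chrdl1, a secreted regulator of synapses, had 28 UMIs in 5 cells, with 53.6% in 1 cell, against 1 early and 0 late UMIs.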
